A study of Mus musculus with 2 samples.

Results

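Receptors for the Fc part of immunoglobulin G, their signalling partners and the transport receptor for IgG were followed in whole lungs carrying Lewis lung carcinoma (LLC) tumours. The group was set by gene symbol and held 8 genes of the 18193 with a probe set of their own. These were the activating receptors Fcgr1, Fcgr3 and Fcgr4, the inhibitory receptor Fcgr2b, the transport receptor Fcgrt, the adaptors Fcer1g and Tyrobp, and the kinase Syk. Every probe set annotated to these symbols was used, 16 in all. The lungs came from C57BL/6 mice that had received 500000 LLC cells in 200 µL through the tail vein at 6 to 8 weeks of age, and were taken on day 19. In one group the injected cells had been transfected with vector (control), and in the other they overexpressed TDAG8, the proton-sensing receptor encoded by Gpr65. Both groups therefore bore tumour cells, and lungs without tumour cells were not analysed here. Each group was 1 pool of RNA from 10 lungs, read on 1 Affymetrix array. The comparison therefore rests on 2 arrays, gives no spread between mice and allows no test or error for a single gene.

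Fc gamma receptors bind IgG in immune complexes and on coated cells. In mice the activating receptors have no signalling motif of their own and pair with the common gamma chain, encoded by Fcer1g, whose ITAM (a tyrosine motif) recruits Syk once phosphorylated. Fcgr2b carries an inhibitory motif in its own tail, which recruits the phosphatase SHIP1, and is the inhibitory receptor of the classical family. It is found on B cells as well as on myeloid cells, whereas the activating receptors mark monocytes, macrophages, neutrophils and, for Fcgr3, natural killer cells. Fcgrt encodes the heavy chain of the neonatal Fc receptor, which pairs with beta-2 microglobulin and carries IgG through endothelial and epithelial cells and back out of the endosome.

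Both arrays had a trimmed mean intensity of 100 array units. Values below the median of an array, the floor (26.3 in the control and 24.3 in the TDAG8 array), were treated as too dim to measure. Of all genes 11949 were at or above the floor on at least 1 array. The brightest gene of a list is chosen by its log2 intensity averaged over the 2 arrays. Ratios are TDAG8 over control on the log2 scale after centring on the median gene, and folds are derived from them. The lung label matched its markers, since all 8 lung epithelial markers were measured, led by the club cell gene Scgb1a1 with 10111.5 units in the control and 8731 in the TDAG8 array. All 8 had ratios below 0, with a median of -0.54, Foxj1 at -0.81, Nkx2-1 at -0.75 and Aqp5 at -0.63, and the actin gene Actb was at -0.09. Gpr65 itself read 32.3 and 73.9, 2.38-fold higher with TDAG8, by 1 probe set that may or may not read the transfected sequence. With the floor at the 65th percentile, above its control value, the log2 ratio of 1.25 became a bound of 0.29, and with an offset in place of the floor it was 0.81.

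The activating receptors were all higher in the lungs with TDAG8-overexpressing cells. Fcgr1, the high-affinity IgG receptor, read 84.1 in the control and 265 in the TDAG8 array, a log2 ratio of 1.71 or 3.28-fold. A second, dimmer probe set of Fcgr1 read 27.5 and 110.3, 4.18-fold, with its control value just above the floor. Fcgr4, an intermediate-affinity receptor for some IgG subclasses, went from 108 to 272, a log2 ratio of 1.38 or 2.61-fold. Fcgr3, the low-affinity activating receptor, read 217 and 432, 1.05 on the log2 scale or 2.08-fold. Fcgr1 was thus the member with the highest ratio, and 152 of the 11949 measured genes had a higher one. For Fcgr4 and Fcgr3 those numbers were 310 and 568. Among the 8 members 4 were higher by 2-fold or more and 0 were lower by that much. The shares of all measured genes were 5.41% higher and 1.19% lower. In bulk RNA like this, more cells of a type and more RNA per cell cannot be told apart.

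**Figure D1:**
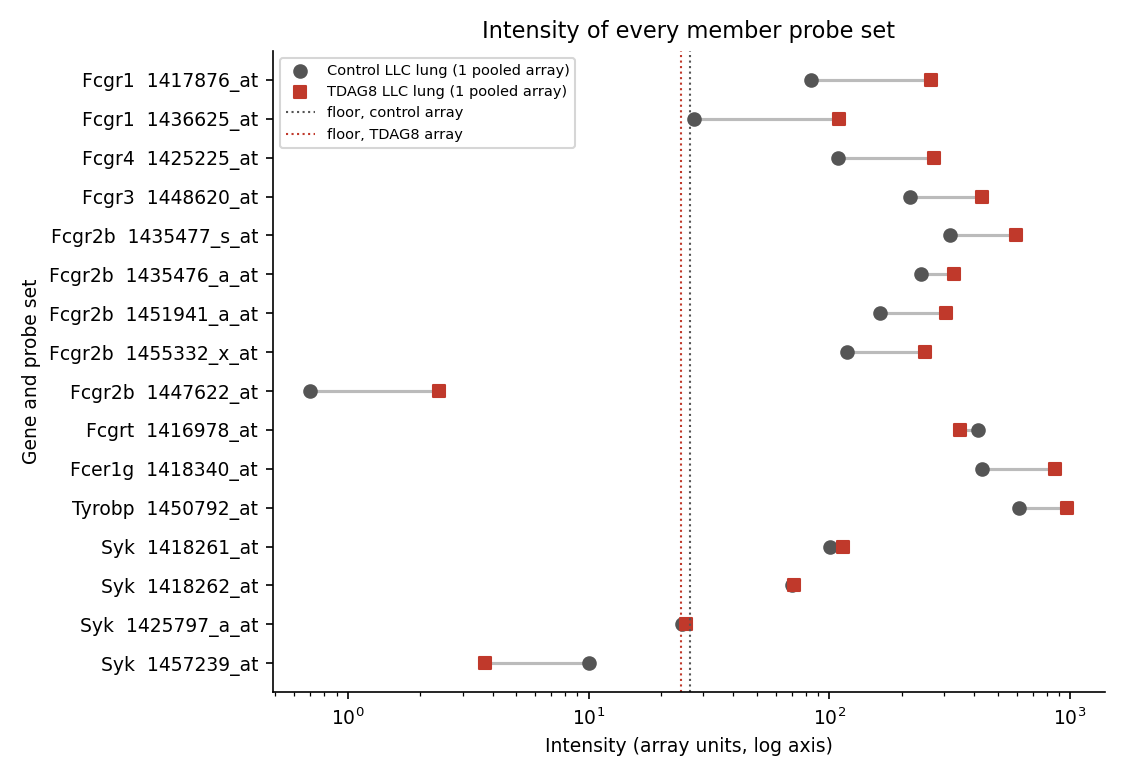
Intensity of the 16 member probe sets (log axis, array units) in the control (grey circles) and TDAG8 (red squares) array, each 1 pool of 10 lungs, with the floor of each array as a dotted line. The TDAG8 value lies to the right of the control value for every probe set of Fcgr1, Fcgr4, Fcgr3, Fcer1g and Tyrobp, to the left for Fcgrt, and close to it for the 2 brighter probe sets of Syk.

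Fcgr2b was higher too, by an amount that depended on the probe set. The brightest went from 318 to 596, a log2 ratio of 0.96 or 1.95-fold. Of the others, one went from 241 to 330.5, 1.43-fold, another from 163 to 304, 1.94-fold, and another from 118.5 to 250.4, 2.20-fold. The dimmest lay below the floor on both arrays, at 0.7 and 2.4, and gives no ratio. The 4 readable probe sets thus all pointed up, with log2 ratios from 0.51 to 1.14 and an SD of 0.27 between them. Across 4775 genes with at least 2 readable probe sets the pooled SD between probe sets of a gene was also 0.27. The 4 names end in _a, _s or _x, by which Affymetrix marks probe sets that can match several transcripts, and for _s and _x also other genes. The outer domains of Fcgr2b and Fcgr3 are closely alike, and whether these probe sets read both was not tested.

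The transport receptor stood apart from the IgG receptors of leukocytes. Fcgrt went from 414 to 349.8, a log2 ratio of -0.18 or 1.14-fold lower, at percentile 35.1 of all measured genes. Its light chain partner B2m, also the light chain of MHC class I, went from 5462 to 5218, a log2 ratio of -0.01. The sign of the B2m value turned with the setting and was 0.074 when all its probe sets were averaged, so it has no direction. Fcgrt kept a ratio below 0 under all 9 alternative settings, between -0.26 and -0.16. Because it has 1 probe set, well above the floor, the floor and averaging settings could barely change it. Its distance from 0 was also smaller than the SD of 0.27 between probe sets of a gene. Endothelial markers, from a cell type in which FcRn is prominent, were below 0 for 10 of 10 genes with a median of -0.75, led by Clec14a at -1.07, Plvap at -0.89 and Tek at -0.82, and their part in the Fcgrt value was not tested.

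Set against the inhibitory receptor, the activating receptors differed among themselves. Fcgr1 exceeded Fcgr2b by 0.75 in log2 ratio with the brightest probe sets, and by 0.57 to 1.55 over all 8 pairings of their readable probe sets. Fcgr4 exceeded Fcgr2b by 0.42, and by 0.25 to 0.87 over 4 pairings. Both differences were above 0 in every pairing, although the lower end for Fcgr4 was smaller than the SD of 0.27 between probe sets of a gene. That SD is of single probe sets, and a difference between 2 genes would vary more. The pairings share the 4 probe sets of Fcgr2b, and Fcgr4 has 1, so they are not independent. The upper end for Fcgr1 uses its dimmer probe set, at 27.5 in the control and just above the floor. Fcgr3 exceeded Fcgr2b by 0.09, and over 4 pairings the difference ran from -0.08 to 0.54. The ratio of Fcgr3 to Fcgr2b therefore had no settled direction. Against Fcgrt the differences were larger, at 1.90 for Fcgr1, 1.57 for Fcgr4 and 1.24 for Fcgr3. These are differences of ratios within the same 2 arrays and carry no replicate error.

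**Figure D2:**
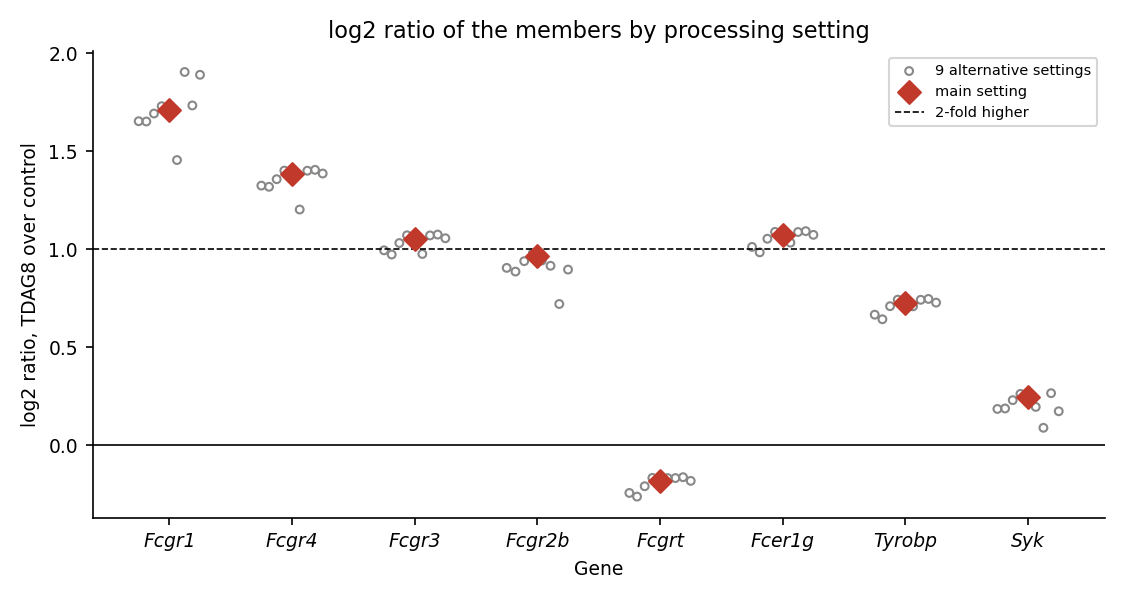
log2 ratio of TDAG8 over control for each member gene under the main setting (red diamonds) and 9 alternative settings (open circles), with the 2-fold line dashed. Fcgr1 and Fcgr4 stay above the line under every setting drawn, Fcgr3 and Fcer1g lie close to it, Fcgr2b and Tyrobp lie below it, and Fcgrt stays below 0.

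The upstream sequences of the 3 activating receptor genes and of Fcgr2b are shown because these 4 are the leukocyte IgG receptors compared above, with Fcgr2b as the inhibitory counterpart. Each is the 250 bases before the annotated start, from RefSeq on GRCm38.p6. Windows of 7 members were used, all but Tyrobp. Capitals mark matches, on either strand, to GAGGAA (the core of PU.1 sites, a factor of myeloid cells), TTCNNNGAA (the GAS element bound by STAT dimers) and GAAA followed after any 2 bases by GAAA (the core of interferon response elements). For Fcgr3, with 2 annotated starts, the more upstream one is given.
Fcgr1, chr3:96293970-96294219, minus strand: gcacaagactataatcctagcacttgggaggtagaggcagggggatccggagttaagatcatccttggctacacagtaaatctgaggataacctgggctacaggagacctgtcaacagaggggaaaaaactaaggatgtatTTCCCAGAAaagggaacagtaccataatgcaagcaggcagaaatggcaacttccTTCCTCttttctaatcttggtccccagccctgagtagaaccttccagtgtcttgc
Fcgr4, chr1:171018676-171018925, plus strand: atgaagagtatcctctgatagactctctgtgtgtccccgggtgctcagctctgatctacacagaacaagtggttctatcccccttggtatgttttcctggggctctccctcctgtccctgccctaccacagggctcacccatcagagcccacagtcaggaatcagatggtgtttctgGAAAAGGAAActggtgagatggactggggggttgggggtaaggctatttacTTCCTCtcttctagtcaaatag
Fcgr3, chr1:171059404-171059653, minus strand: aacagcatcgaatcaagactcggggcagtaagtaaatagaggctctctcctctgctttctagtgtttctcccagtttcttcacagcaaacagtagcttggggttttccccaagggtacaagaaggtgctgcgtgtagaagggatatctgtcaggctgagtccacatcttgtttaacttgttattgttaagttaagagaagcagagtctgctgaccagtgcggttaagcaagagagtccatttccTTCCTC
Fcgr2b, chr1:170976072-170976321, minus strand: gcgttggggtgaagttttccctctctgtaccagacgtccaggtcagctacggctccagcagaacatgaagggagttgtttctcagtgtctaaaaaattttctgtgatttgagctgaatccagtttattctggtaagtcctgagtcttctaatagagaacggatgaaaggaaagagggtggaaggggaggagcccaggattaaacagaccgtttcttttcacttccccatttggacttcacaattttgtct

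The PU.1 core was found in the windows of Fcgr1, Fcgr4 and Fcgr3, and at 1 of 2 starts of Syk. Its first base lay 55 bases before the start of Fcgr1, 22 before Fcgr4 and 6 before the printed start of Fcgr3. Of all 32851 windows of this length 23.3% held it, and of all 27025 genes 25.9% did in at least 1 window. A GAS match was present in Fcgr1 alone among these 7 members, 109 bases upstream and read as TTCCCAGAA, against 7.02% of all windows and 8.13% of all genes. The interferon element was present among them in Fcgr4 alone, 73 bases upstream and read as GAAAAGGAAA, against 2.98% of all windows and 3.46% of all genes. No 2 of these matches overlapped. The windows of Fcgr2b, Fcer1g and Fcgrt held none of the 3 letter patterns, which says only that these letters are not in those windows.

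Of the 2 adaptors, Fcer1g followed the low-affinity receptors. Fcer1g, the gamma chain that the activating receptors need for surface expression and signalling, went from 429.5 to 866, a log2 ratio of 1.07 or 2.10-fold, close to the 1.05 of Fcgr3. Tyrobp, also called DAP12, an ITAM adaptor used by TREM and related receptors, read 612 and 971, at 0.73 on the log2 scale or 1.65-fold. Syk, the kinase that docks on phosphorylated ITAMs, went from 100.4 to 114, a log2 ratio of 0.24 or 1.18-fold. A second probe set of Syk gave 69.7 and 71.6, another lay at the floor with 24.5 and 25.3, and the dimmest was below the floor on both arrays. The order of the ratios was thus Fcgr1, Fcgr4, Fcer1g, Fcgr3, Fcgr2b, Tyrobp, Syk and Fcgrt. Neighbours from Fcer1g to Fcgr2b in that order lay within 0.11 of each other, less than the SD between probe sets of a gene. The median over the 8 members was 1.01, against 0.00 over all measured genes, and 7 of 8 were above 0, where 49.9% of all measured genes were.

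Genes that act downstream of ITAM receptors lay near the median gene. Of 26 measured kinases and adaptors 16 were above 0, 0 were at least 2-fold different and the median was 0.11. The largest differences in this list were those of Lcp2 (SLP-76, a scaffold for phospholipase C) at 0.91, Pik3r1 (the p85 subunit of PI3 kinase) at -0.84 and Plcg2 (a phospholipase C of myeloid and B cells) at 0.75. Its brightest member, the actin regulator Wasf2, was at -0.09. Of 19 phosphatases and inhibitory receptors 11 were above 0, 4 of them by 2-fold or more, and the median was 0.38. The shares to set beside each list count are those of all measured genes, 49.9% above 0 and 5.41% at least 2-fold higher. Dok2, an adaptor that dampens tyrosine kinase signals, went from 37.5 to 89.1, 2.47-fold, but its log2 ratio of 1.31 became a bound of 0.56 under the 65th percentile floor and was 0.90 with an offset. The inhibitory receptors Cd72 and Clec4a2 were 2.32-fold and 2.28-fold higher, and the remaining one, named after its value was seen, was the paired receptor gene Pirb at 2.17-fold. All 3 fell short of 2-fold with an offset, at 0.97, 0.96 and 0.86, and Clec4a2 was at 0.58 when all its probe sets were averaged. The brightest of that list, Pecam1, which also marks endothelium, was at -0.62.

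Other receptors that signal through Tyrobp or Fcer1g, and phagocyte effector genes, were mostly above 0. Of 14 measured receptors 13 were above 0, 3 of them by 2-fold or more, and the median was 0.69, but 3 of the 13 could be read in the TDAG8 array alone. The lectin receptors Clec4d and Clec4e, which use the gamma chain, went from 69.9 to 313.5 and from 34.3 to 118, log2 ratios of 2.22 and 1.84. The value of Clec4e became a bound of 0.96 under the 65th percentile floor and was just past 2-fold when all its probe sets were averaged. Clec4n (dectin-2) was at 0.99. The values of Clec4d and Clec4n come from probe sets named _s, which can also match other genes, and whether they do was not tested. Trem2, a Tyrobp-dependent lipid receptor named after its value was seen, read 14.4 in the control, below the floor, and 58.5 with TDAG8, at least 2.32-fold more, or 0.60 on the log2 scale when all its probe sets were averaged, and below the 65th percentile floor on both arrays. The 1 exception was Klra8, a natural killer cell receptor, at 31.0 in the control and below the floor at 18.9. All 5 measured NADPH oxidase genes were above 0, none of them at 2-fold, with Cybb (gp91phox) at 0.67, Cyba at 0.41 and Ncf4 at 0.39. Of 9 complement components and receptors of phagocytes 7 were above 0, 6 of them by 2-fold or more, and the median was 1.20. Itgam, a chain of complement receptor 3, went from 32.5 to 104, C1qb from 391 to 1184.5 and C1qc from 331 to 845, while Itgb2, the brightest, was at 0.69. Under the 65th percentile floor the log2 ratio of Itgam, 1.73, became a bound of 0.78. Over 68 genes of these 5 lists above the floor on both arrays, those with ratios nearest the activating median of 1.38 were C1qc at 1.41, C3ar1 at 1.32 and Dok2 at 1.31. With 2 arrays a pattern is a single ratio, so this nearness is a description only.

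**Figure D3:**
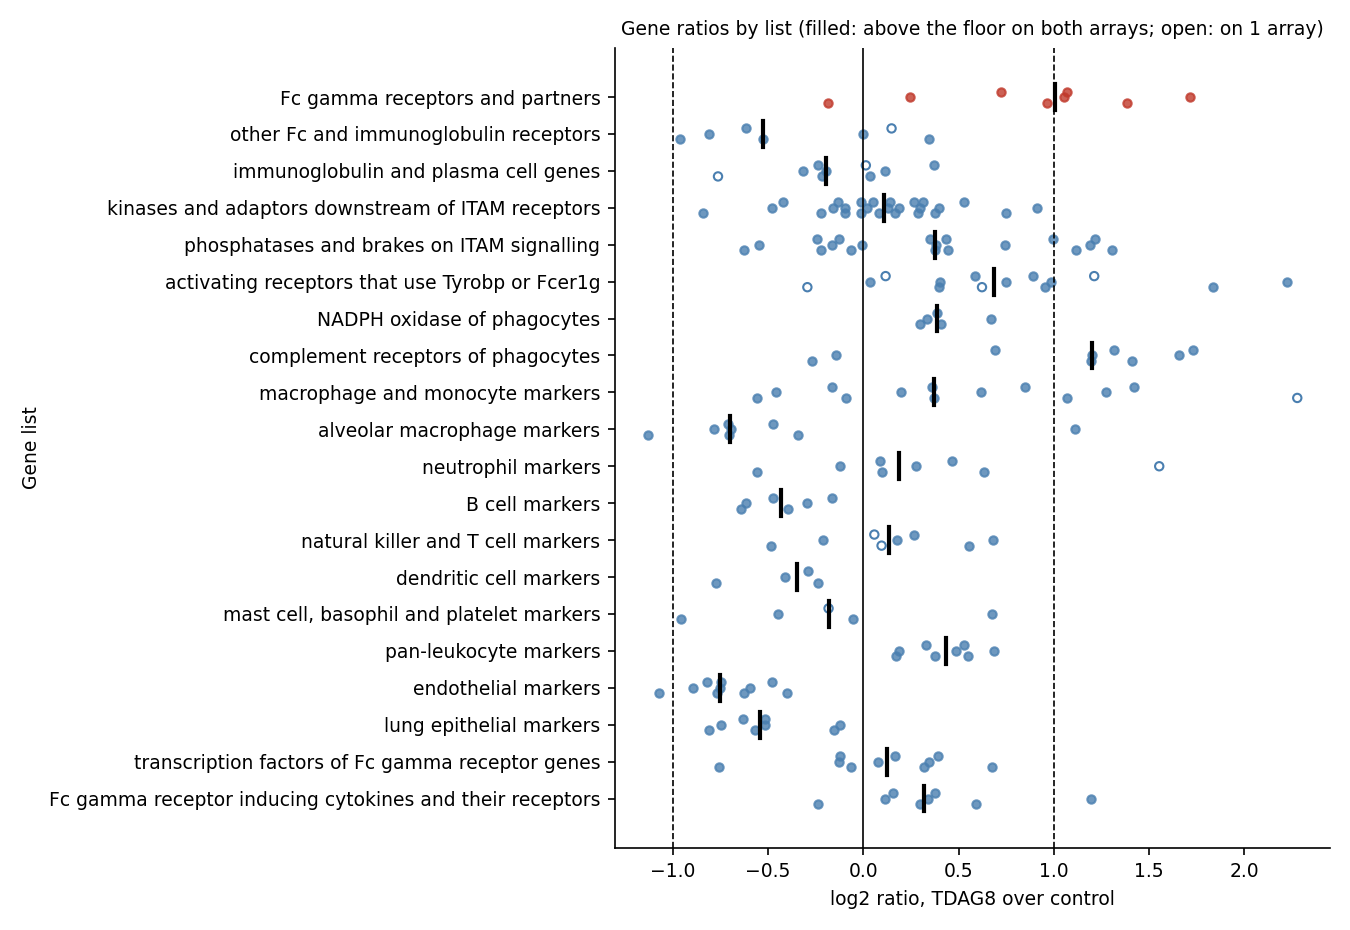
log2 ratio of TDAG8 over control for each measured gene of the Fc gamma receptor group (red) and of 19 other lists (blue), with the list median as a black bar and 2-fold as dashed lines. Open circles are genes above the floor on 1 array only, whose value is a bound. The receptor group has a median of 1.01, next to 1.20 for complement genes of phagocytes, while endothelial and alveolar macrophage markers have medians of -0.75 and -0.70.

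Other Fc and immunoglobulin receptors, a list that includes Fc receptor-like genes, had a median below 0. Of 7 measured, 3 were above 0 and 0 were 2-fold different, with a median of -0.52. The 3 include Fcrla, which read 24.8 in the control, below the floor, and 28 with TDAG8, so its value is a bound. Fcmr, the IgM receptor of B cells, read 134 and 66.0, at -0.96. Pigr, which carries IgA across airway epithelium, went from 254 to 139, at -0.81, and the B cell IgE receptor Fcer2a was at -0.61. The cytosolic antibody receptor Trim21 was at 0.00, its sign turning with the setting. The chains of the mast cell IgE receptor, Fcer1a and Ms4a2, which share the gamma chain with the IgG receptors, were below the floor on both arrays. Of 9 measured immunoglobulin and plasma cell genes 4 were above 0, with a median of -0.20, Sdc1 at 0.37, Igha at -0.32 and Jchain at -0.24, and the brightest, Xbp1, at -0.20. Other probe sets gave Sdc1 down to -0.13 and Xbp1 up to 0.073, and the cell source of both genes was not tested. The genes of the IgG heavy chains other than Ighg3 were not analysed here, and Ighg3 read 20.2 and 25.5, at the floor.

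Cytokines and factors known to act on these receptor genes were examined from lists as well. Interferon gamma, which induces Fcgr1 and Fcgr4, was below the floor on both arrays, with Ifng at 14.7 and 18.7. Il10, Il4, Il6, Tnf and Csf3 were below the floor too. Of 8 measured cytokine and receptor genes 7 were above 0 with a median of 0.32. C5ar1, the C5a receptor, read 44.2 and 97.0, 2.29-fold higher, but was at 0.68 as a bound under the 65th percentile floor and at 0.85 with an offset. Csf1, the growth factor of macrophages, was at 0.59, and Ifngr2 was at 0.38, though its second probe set was at -0.05. Tgfb1, the brightest, was at 0.34. Of 10 transcription factors 6 were above 0 and 0 were 2-fold different. Spi1, which encodes PU.1, went from 120 to 184, a log2 ratio of 0.68. Cebpa was at -0.76, Tfec at 0.39 and the brightest, Cebpb, at 0.35.

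Markers of the cells that carry these receptors lay on both sides of 0. All 8 pan-leukocyte markers were above 0, between 0.17 and 0.68, with a median of 0.43 and a summed intensity of 5475 in the control and 6821 in the TDAG8 array. Cd48 was at 0.68, Cd53 at 0.55, Arhgdib at 0.53 and Cd52, the brightest, at 0.49. Of 13 measured macrophage and monocyte markers 9 were above 0, 4 of them by 2-fold or more, the median was 0.37 and the sums were 11659.8 and 12772. In that list Aif1 was at 1.42, Cd68 at 1.28, Adgre1 (F4/80) at 1.07 and the brightest, Lyz2, at -0.09. Lyz2, at 6649.8 and 6002.4, was the largest part of the sums, and its cell source was not tested. Also below 0, and named after their values were seen, were Mertk at -0.56, Cd163 at -0.46 and Mrc1 at -0.16. The remaining one at 2-fold, Msr1, read 25.4 in the control, under the floor, and 122 with TDAG8, at least 4.85-fold more, a log2 bound of 2.28 that was 1.02 under the 65th percentile floor and a value of 1.38 when all its probe sets were averaged. No marker of that list with a probe set of its own was below the floor on both arrays. Alveolar macrophage markers were below 0 for 7 of 8 genes with a median of -0.70 and sums of 5167 and 3090.1. Chil3 (3662 and 2148.4) and Car4 (1005.5 and 561) made up most of those sums, and their cell source was not tested. Fabp1 was 2.19-fold lower, Car4 at -0.78, the brightest, Chil3, at -0.71, and Marco 2.16-fold higher. Fabp1 lay under 2-fold in 4 alternatives, between -0.93 and -0.70, with its other probe set at -0.73, and Marco was at 0.86 with an offset. Of 8 neutrophil markers 6 were above 0, with a median of 0.19, sums of 2364 and 2318, Csf3r at 0.63, Ltf at -0.56, Mmp8 at 0.47 and Lcn2 at -0.12. The 1 neutrophil gene at 2-fold, Padi4, named after its value was seen, read 18.4 in the control, under the floor, and 74.1 with TDAG8, at least 2.93-fold more, a log2 bound that shrank to 0.29 under the 65th percentile floor. Of 8 natural killer and T cell markers 6 were above 0, with a median of 0.14, Cd8a at 0.68, Cd3e at 0.55 and Gzma at -0.49, although another probe set of Cd8a gave -0.03. Among those 6, Prf1 (20.3 and 26.3) and Eomes (23.6 and 27) were below the floor in the control, so their values are bounds. All 6 B cell markers, from a lineage that carries Fcgr2b, were below 0, with a median of -0.43, sums of 642 and 467, Ms4a1 at -0.64 and Blk at -0.47. The 4 measured dendritic cell markers were below 0 with a median of -0.35, from Itgae at -0.77 (a bound of -0.098 under the 65th percentile floor), Cd209a at -0.41 and Ccr7 at -0.29 to the brightest, Zbtb46, at -0.24. Mast cell, basophil and platelet markers had a median of -0.18 over 5 genes, with Kit at -0.95, Pf4 at 0.67 and Ppbp at -0.45. That median is the value of Gp9, a bound, since Gp9 read 28.7 in the control and 17.7, below the floor, with TDAG8. The 5 other genes of that list, the mast cell and basophil genes Cpa3, Mcpt4, Mcpt8, Fcer1a and Ms4a2, were below the floor on both arrays. The cell source of the Kit value was not tested. The part of these cell types in the receptor values was not tested.

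In chromosome order the receptor genes lie close together. Fcgr2b, Fcgr4, Fcgr3 and, after 7 other protein-coding genes, Fcer1g follow each other on chromosome 1, whereas Fcgr1 lies on chromosome 3. Of 19 protein-coding neighbours from Atf6 to Ufc1, 12 were measured, and their median log2 ratio was 0.21. The genes between Fcgr3 and Fcer1g included Cfap126 at -0.51, Sdhc at 0.25, Pcp4l1 at -0.82 and Tomm40l at 0.12, which turned to -0.018 over its readable probe sets. The 1 neighbour at 2-fold was Adamts4, a metalloproteinase, which read 9.3 in the control, under the floor, and 74.8 with TDAG8, a log2 bound of 1.57 that was 0.31 under the 65th percentile floor, and a value of 0.91 when all its probe sets were averaged. The 4 receptor and adaptor genes of this stretch, between 0.96 and 1.38, were thus above each of the 11 other measured neighbours.

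**Figure D4:**
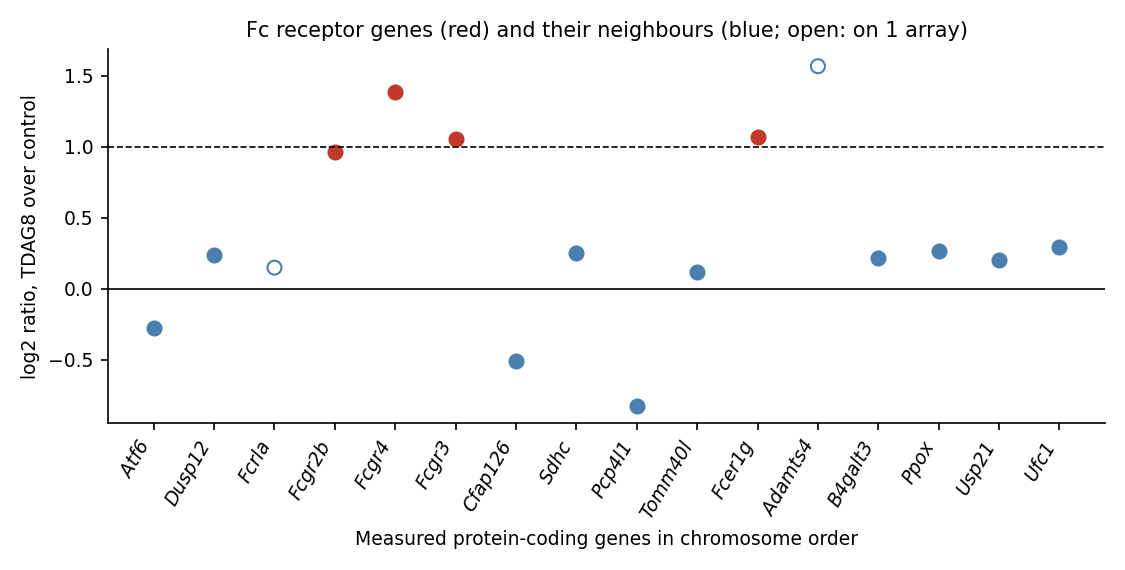
log2 ratio of TDAG8 over control for the measured protein-coding genes around the Fc receptor cluster of chromosome 1, in chromosome order, with the 4 members in red, neighbours in blue and open circles for genes above the floor on 1 array. The members lie between 0.96 and 1.38, and the neighbours between -0.82 and 0.30 except Adamts4 at a bound of 1.57.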

How the data were processed

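Per the labels' protocols, 2 µg of RNA pooled from 10 lungs was labelled per array from the poly(A) tail, so the signal comes from the 3′ part of transcripts. The authors deposited 1 linear intensity for each probe set, and both columns average 100 once 2% of the probe sets is trimmed at each end. Image software and summary method: not given in the sources used here. Detection calls were not used here, and having 2 arrays limits the precision.

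Of 45037 probe sets other than controls, 34945 had 1 gene symbol, 932 several and 9160 none in the platform annotation, and 34741 were matched by gene identifier to RefSeq (GRCm38.p6). Genes with several symbols per probe set were not named. The brightest probe set stood for a gene, and the other probe sets of members are printed. Values were raised to the floor, the 50th percentile of each array. Since the column medians differed by -0.11 (log2), past a limit of 0.1, ratios were centred by -0.06, the median over the 11044 genes readable on both. A ratio against a value below the floor is a bound. Calls mean at least 2-fold. With 1 array per group no test was run.

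The members and the 20 lists were chosen with earlier results of these data known. Some genes, C5ar1 and Pecam1 among them, stand in more than 1 list. Named were all members, in each list the 3 members with the largest differences among those readable on both arrays plus the brightest, the 3 genes nearest the activating median, and Gpr65. Chromosome neighbours, promoter motifs and a few genes so marked were added after values were seen. The script was tested on simulated data. Alternatives were a 30th and a 65th percentile floor, an offset in its place, no centring, loess centring (span 0.3), quantile normalization, averaging all probe sets of a gene, and leaving out probe sets named _a, _s or _x. The mean over readable probe sets was added after seeing the data. Python 3.11.15, pandas 2.3.3 and statsmodels 0.14.6 were used.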

Additional observations from a re-analysis of the deposited data

How the results depend on the processing

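All 71 values of the 8 member ratios under 9 alternatives kept their sign, except that Fcgr2b had no value with only probe sets without _a, _s or _x, where its 1 remaining probe set was below the floor. Fcgr3 fell under 2-fold without centring (0.99), with quantile normalization (0.97) and with an offset (0.98), and Fcer1g with quantile normalization (0.98), which left 2 members at 2-fold in place of 4. Fcgr1 minus Fcgr2b was 1.18 with the mean over all probe sets, which includes the dim one of Fcgr2b, and Fcgr1 minus Fcgrt was 1.62 with an offset. The median of the brakes list was 0.10 with the mean over all probe sets, and that of complement genes 0.78 with the floor at the 65th percentile. The immunoglobulin and plasma cell median turned to 0.065 with only probe sets without _a, _s or _x, with Xbp1 at 0.095, and the natural killer and T cell median to -0.036 with the higher floor. B2m turned to 0.011 with the 30th percentile floor, 0.00156 with an offset, 0.074 with the mean over all probe sets and 0.060 over readable ones. Trim21 turned to -0.058 without centring, -0.075 with quantile normalization, -0.022 with loess, -0.020 with the 65th percentile floor, and -0.17 and -0.18 with the 2 means. Tomm40l turned to -0.00367 and -0.018 with those means. Among genes at 2-fold with control values near the floor, Gpr65, Dok2, Itgam, Clec4e, C5ar1, Padi4 and Adamts4 lost that call under the 65th percentile floor, which lies above their control values. With an offset Adgre1 was at 0.95, and Clec14a was at -0.93 and -0.94 with the 2 means. Clec4n, Fcmr and Kit, close to 2-fold, passed it in some settings. The count of genes at least 2-fold higher was 419 with the 65th percentile floor, against 646. The count at least 2-fold lower was 345 with the 30th and 68 with the 65th percentile floor, 31 with an offset and 78 with the mean over all probe sets, against 142. The causes were not tested. No paired analysis was possible because each group had 1 array. Signal close to or below the floor limits the second probe set of Fcgr1 and the dimmest ones of Syk. It does not limit the brightest of Syk, at 100.4 and 114.2, or the next, at 69.7 and 71.6.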
